A study of Mus musculus with 10 samples.

Results

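Chromatin accessibility was compared, gene by gene, between quiescent and activated neural stem and progenitor cells (NSPCs) of the mouse, using 4 of the 10 libraries of the series. The peaks of 2 quiescent and 2 activated ATAC-seq libraries on chromosomes 1 to 19 were merged into 68484 sites wherever they overlapped or abutted. Each site was then given to the gene with the nearest protein-coding transcription start site (TSS). A site was called state-specific when both libraries of one state had a peak in it and neither library of the other state did. By this rule 11311 sites were state-specific, of which 6714 were quiescent-specific and 4597 activated-specific. They lay nearest to 5902 of the 15921 genes that had any site.

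NSPCs of the postnatal and adult brain either divide or rest in a reversible, non-dividing state, quiescence, from which they can return to the cell cycle. Bone morphogenetic proteins such as BMP4 act through SMAD transcription factors and hold these cells in quiescence, whereas EGF and FGF2 act through receptor tyrosine kinases and drive proliferation. ATAC-seq cuts and tags accessible DNA with a transposase, and promoters and enhancers in use stand out as peaks of reads. Enhancers can lie far from the gene they act on, in introns or between genes, and a gene may be served by several of them. The nearest gene is therefore a name for a position, and not a measured target.

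All cells were primary NSPCs from C57BL/6 mice at postnatal day 5. Activated NSPCs were grown with 20 ng/ml FGF2 and 20 ng/ml EGF. Quiescent NSPCs received 20 ng/ml FGF2 and 25 ng/ml BMP4 without EGF, for 4 days according to the labels and for a shorter time according to the methods. EGF withdrawal and BMP4 addition thus came together and cannot be told apart. The study calls the replicates biologically independent, and neither the labels nor the methods say whether the cultures came from separate mice.

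The 2 quiescent lists held 53586 and 59108 peaks on these chromosomes, and the 2 activated lists held 56961 and 46071. Background pileup, the reads expected at a position by chance, was 6.61 and 12.1 in the quiescent libraries and 6.54 and 6.01 in the activated ones, so that quiescent replicate 2 was the deepest. Fold enrichment, the pileup at a peak's summit over the background of the same library, had to reach 2.37 and 1.99 for a call at that background in the quiescent libraries, and 2.39 and 2.42 in the activated libraries. These limits hold at the background given, and some peaks with a lower fold enrichment were called, such as those of an activated-specific site of *Foxo3* (2.14 and 2.34). Because the lists differ in length, the counts of specific sites, of genes that have or gather them and of called sites per library were repeated with each list cut to its 46071 peaks of highest −log10 p. Annotation, distances, neighbours, motifs of named genes and totals of the gene lists are given for lists as deposited. Of 10 marker genes of neural stem cells, 9 had a promoter peak in all 4 libraries, the exception being *Slc1a3*, with one in both quiescent libraries only. No marker of endothelial cells (5 genes), microglia (6) or pericytes and fibroblasts (5) had a promoter peak in all 4 libraries, although *Kdr*, *P2ry12* and *Col1a1*, 1 of each, had one in quiescent replicate 2 and both activated libraries. Of the microglia markers, *Cx3cr1* had one in quiescent replicate 1 only and *Tmem119* in activated replicate 2 only. Among markers of other brain cells, *Snap25* and *Syt1* of neurons (2 of 5), *Foxj1* of ependymal cells (1 of 3) and *Ttr* and *Kl* of the choroid plexus (2 of 2) had one in all 4 libraries. The part of other cell types in the results was not tested.

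To show what these sites look like, the 200 bp around the summit is given for the strongest site of the 3 genes ranked first in each state. Sequences are the plus strand of GRCm38 (mm10). In the 3 quiescent-specific sites, capitals mark TTGGCA on either strand, a short motif, 1 arm of the full site, of the nuclear factor I (NFI) family of transcription factors.
*Tenm4*, chr7:96398069-96398268: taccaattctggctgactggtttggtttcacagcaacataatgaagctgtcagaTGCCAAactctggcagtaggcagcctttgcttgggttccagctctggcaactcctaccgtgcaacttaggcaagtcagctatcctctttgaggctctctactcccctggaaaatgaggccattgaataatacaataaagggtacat
*Ptprd*, chr4:76144356-76144555: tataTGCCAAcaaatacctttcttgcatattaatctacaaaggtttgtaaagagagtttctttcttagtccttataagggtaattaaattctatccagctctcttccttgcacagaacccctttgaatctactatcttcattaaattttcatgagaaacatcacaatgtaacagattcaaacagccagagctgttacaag
*Nrxn3*, chr12:89748284-89748483: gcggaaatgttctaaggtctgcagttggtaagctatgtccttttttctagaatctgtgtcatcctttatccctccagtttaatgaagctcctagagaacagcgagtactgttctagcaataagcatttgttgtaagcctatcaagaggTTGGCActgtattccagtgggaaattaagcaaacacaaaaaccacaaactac
All 3 windows lay in introns of the gene named, and each held 1 match, whereas the windows of *Cntnap2* and *Celf2*, ranked next, held 0. The matches were spread over the windows, near the start in *Ptprd* and past the middle in *Nrxn3*. In the 3 activated-specific sites, capitals mark CAGATG on either strand, an E-box of the kind bound by basic helix-loop-helix (bHLH) factors such as OLIG2.
*Frmd4a*, chr2:4529388-4529587: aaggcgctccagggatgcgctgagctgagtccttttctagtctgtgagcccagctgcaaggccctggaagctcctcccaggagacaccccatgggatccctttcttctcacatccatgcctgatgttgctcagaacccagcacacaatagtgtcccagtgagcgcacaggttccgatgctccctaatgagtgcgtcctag
*Sorl1*, chr9:41919021-41919220: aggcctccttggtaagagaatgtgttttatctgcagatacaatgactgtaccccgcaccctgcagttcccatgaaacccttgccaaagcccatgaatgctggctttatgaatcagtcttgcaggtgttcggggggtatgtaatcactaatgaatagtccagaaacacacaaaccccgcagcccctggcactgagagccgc
*Ntm*, chr9:29197153-29197352: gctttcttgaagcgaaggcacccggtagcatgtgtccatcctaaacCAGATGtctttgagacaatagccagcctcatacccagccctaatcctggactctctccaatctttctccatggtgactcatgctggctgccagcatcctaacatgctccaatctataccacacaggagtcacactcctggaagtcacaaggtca
The *Frmd4a* and *Ntm* windows were intronic and the *Sorl1* window was intergenic. Only the *Ntm* window among these 3 held a match. Shares of these motifs over all sites are given further on.

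Of the sites with a peak in at least 2 of the 4 libraries (45470), 14.8% were quiescent-specific and 10.1% activated-specific, as deposited. A further 22941 (50.4%) had a peak in all 4 libraries. With lists of equal length, the shares were 13.6% (5585 of 40953) and 11.8% (4820), so that the excess of quiescent-specific sites became smaller and kept its direction. It turned when activated replicate 2, the shortest list, was left out, with 7610 quiescent-specific against 11095 activated-specific sites. The specific sites were largely the same under both kinds of list, with 4938 of 6714 quiescent-specific sites (73.5%) and 3750 of 4597 activated-specific sites (81.6%) called again. Most were of moderate height. Median fold enrichment at quiescent-specific sites was 3.81 in replicate 1 and 3.29 in replicate 2, and at activated-specific sites it was 4.26 and 3.804. The calling limit of a state was taken as the higher of the limits of its libraries (2.42 for activation and 2.37 for quiescence). In both libraries of its state, the peak passed the limit of the other state at 5888 quiescent-specific sites (87.7%) and 4546 activated-specific sites (98.9%). Both activated limits, 2.39 and 2.42, already lay above 2.37, whereas quiescent replicate 2 could call from 1.99, below 2.42. These 2 shares can therefore not be compared between the states. The peaks passed 2 times the limit of the other state at 676 quiescent-specific sites (10.1%) and 776 activated-specific sites (16.9%). Passing 3 times the limit were 112 sites in each state (1.67% and 2.44%). A site with no call in a state is therefore one without a called peak there, which need not mean closed. With 2 libraries against 2, the lowest two-sided p of an exact permutation test is 0.333, and no p is given.

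State-specific sites were spread over many genes. Among the 14592 genes with a site in at least 2 libraries, 4136 (28.3%) had at least 1 quiescent-specific site and 3212 (22.0%) had at least 1 activated-specific site. This order turned without activated replicate 2, with 4586 genes for quiescence and 5912 for activation. As deposited, both kinds were present at 1446 genes, quiescent-specific sites alone at 2690 and activated-specific sites alone at 1766. Most of these genes had a single such site (2718 of the 4136 and 2319 of the 3212). At least 3, the number taken here as gathering, were present at 612 genes (4.19%) for quiescence and 284 genes (1.95%) for activation. These genes held 2384 quiescent-specific sites (35.5% of them) and 1060 activated-specific sites (23.1%).

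The same counts were made with lists of equal length. Quiescent-specific sites were then present at 3654 of 14289 genes (25.6%) and activated-specific sites at 3287 (23.0%). Gathering was seen at 439 genes (3.07%) and 333 genes (2.33%), respectively. The genes that gathered sites under both kinds of list numbered 360 for quiescence and 204 for activation. The lead of the quiescent state in gathering genes was thus smaller at equal length, and the cause of that change was not tested. It turned without activated replicate 2, with 702 quiescent against 1218 activated gathering genes, and where sites counted only from 25 kb upstream to 10 kb downstream of a TSS, with 25 against 32.

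**Figure D1:**
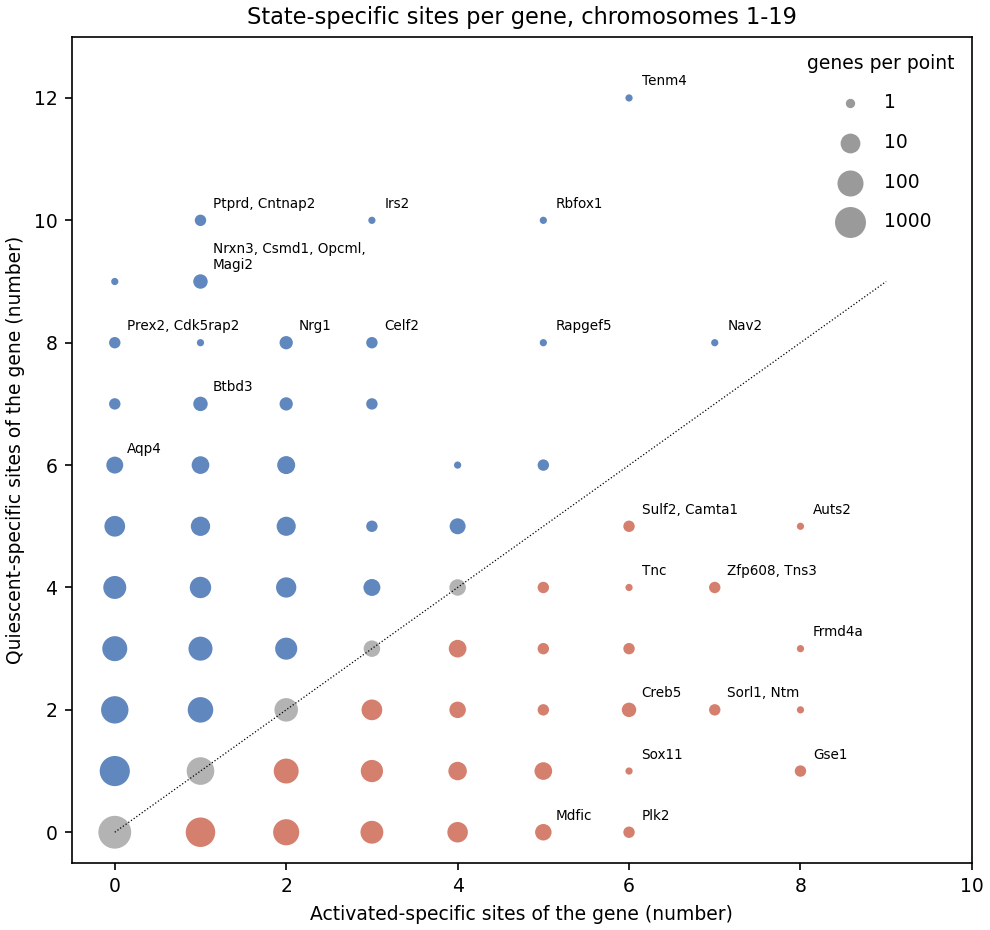
Number of quiescent-specific sites (y axis) and activated-specific sites (x axis) at each gene, with the size of a point showing how many genes share that pair of numbers. Most genes with a specific site have 1 or 2, and the named genes spread along both axes, from *Tenm4* with 12 quiescent-specific sites to *Frmd4a*, *Gse1* and *Auts2* with 8 activated-specific sites.

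As deposited, most gathering genes also had a site of the other state. Of the 612 genes with at least 3 quiescent-specific sites, 266 (43.5%, exact 95% interval 39.5 to 47.5%) had no activated-specific site, and of the 284 genes on the activated side, 99 (34.9%, 29.3 to 40.7%) had no quiescent-specific site. At equal length the states were near equal in this share, at 38.7% (170 of 439 genes) for quiescence and 38.4% (128 of 333) for activation. The share without the other state rose above that with it under stricter settings, to 52.8 and 56.6% with peaks of −log10 q of at least 10 and to 67.9 and 56% with fold enrichment at or above the list's median in both libraries, and within 25 kb upstream to 10 kb downstream of a TSS, to 60 and 75%. At least 3 sites of each state were found at 65 genes. All such intervals cover counting error over genes or sites only, and neighbouring genes and sites are not independent. Gathering genes were also rich in sites and stood in wide territories. Their median number of sites was 10 on the quiescent side and 11 on the activated side, against 2 over all genes, and their median territories, the stretch nearest to their TSSs, were 438 and 418 kb, against 59.5 kb. Across the 14592 genes, the number of quiescent-specific sites followed the number of sites with a Spearman rho of 0.56, and the number of activated-specific sites with a rho of 0.50, where each specific site is itself one of the sites counted.

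For each gene, the number of its sites with a peak in a library gave a value per library. These called sites include those with a peak in a single library, whereas the number of sites a gene has, as given below, covers sites with a peak in at least 2, so that the first can exceed the second. In 2370 of 15921 genes (14.9%) both quiescent libraries had more called sites than either activated library, and in 1115 genes (7.0%) both activated libraries had more. At equal length these shares were 12.8% (1966 of 15381) and 9.97% (1534). Without activated replicate 2 the order turned, with 2774 genes higher in quiescence and 2924 higher in activation. The 15 genes per state with the most specific sites under both kinds of list are described next. The counts of sites chose these genes, so that the values below are a description.

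**Figure D2:**
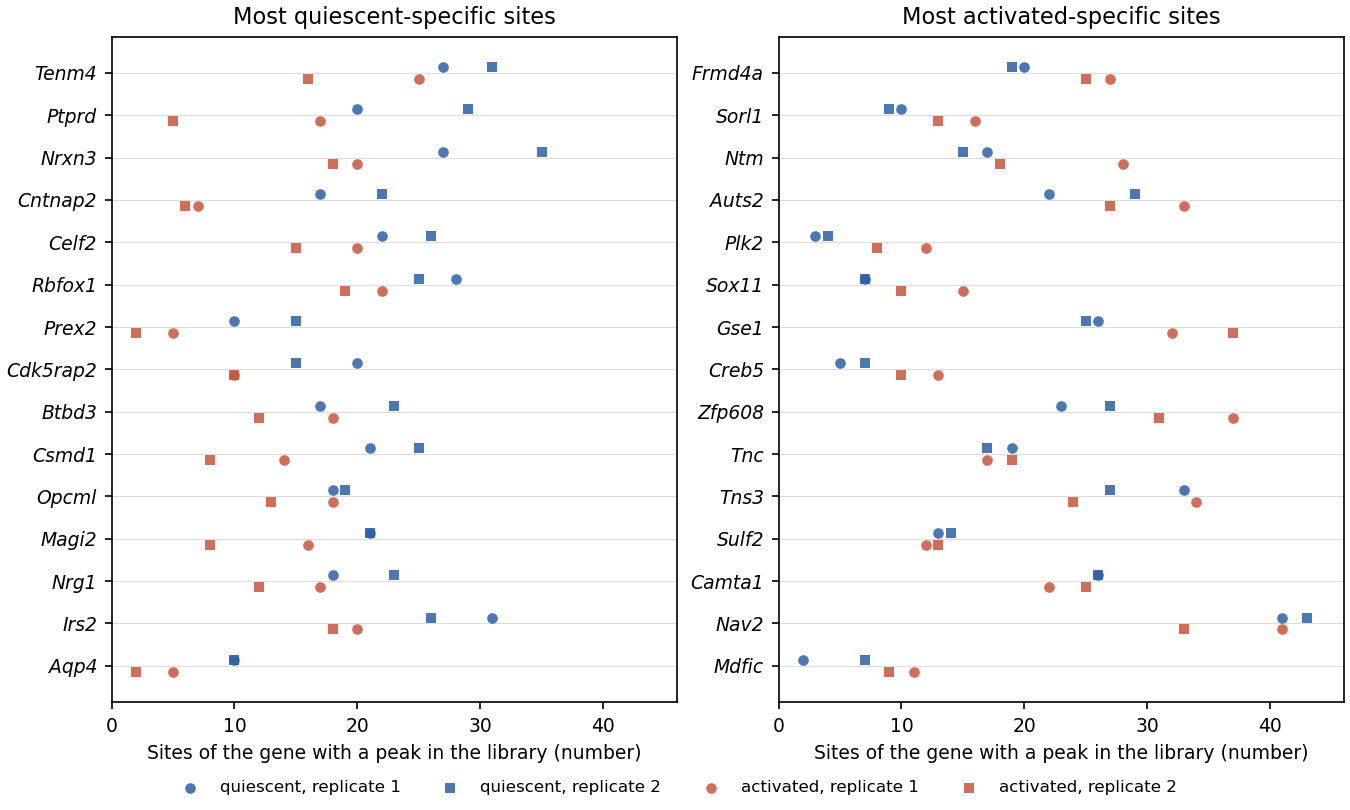
Number of sites of each gene with a peak in each of the 4 libraries (x axis). Shown are the 15 genes with the most quiescent-specific sites (left) and the 15 with the most activated-specific sites (right). Genes were ranked by sites that were specific under both kinds of list. Circles are replicate 1 and squares replicate 2, and both libraries of the named state are above both of the other in 13 genes on the left and 9 on the right, where *Camta1* is separated the other way, with quiescence higher.

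The 15 genes on the quiescent side had territories of 287 to 3033 kb, with a median of 1698 kb, against 59.5 kb over all genes, and are ordered below by what they are known to do. Those of cell adhesion and the synaptic surface are given first. *Tenm4* (ENSMUSG00000048078.16, chr7:96171246-96911093, plus strand), a teneurin that joins cells across contacts, had 12 quiescent-specific and 6 activated-specific sites among 32. Peaks were called at 27 and 31 *Tenm4* sites in the quiescent libraries and at 25 and 16 in the activated libraries. The states did not overlap, but the lower quiescent and the higher activated library were close, and at equal length they did overlap. At *Ptprd* (ENSMUSG00000028399.18, chr4:75941238-78211961, minus strand), a receptor tyrosine phosphatase of synapses, 20 and 29 sites were called in quiescence and 17 and 5 in activation. Its 10 quiescent-specific sites stood against 1 activated-specific site, and 9 of the 10 were intronic. The activated libraries differed from each other at this gene more than the states did at their nearest.

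A wider gap between states was seen at *Cntnap2* (ENSMUSG00000039419.17, chr6:45059357-47304213, plus strand), a neurexin-like protein of axons. There, 17 and 22 sites were called in quiescence against 7 and 6 in activation. All 10 quiescent-specific sites lay in introns, from 223 to 2180 kb downstream of the gene's 5′ end, and the strongest, chr6:47015113-47015649, had fold enrichments of 9.01 and 9.32. *Nrxn3*, a presynaptic neurexin, had 9 such sites, all intronic, with 27 and 35 called sites in quiescence and 20 and 18 in activation. *Opcml*, a GPI-anchored cell adhesion molecule, had 9 quiescent-specific sites, yet its called sites (18 and 19 against 18 and 13) touched between states. *Magi2*, a scaffold of cell junctions, had 9, with 21 and 21 called sites against 16 and 8. *Csmd1*, a large membrane protein that regulates complement, had 9 as well, with 21 and 25 against 14 and 8. Each of *Ptprd*, *Cntnap2*, *Nrxn3*, *Opcml*, *Magi2* and *Csmd1* had a single activated-specific site.

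Genes of signalling formed another group. *Prex2* (ENSMUSG00000048960.13, chr1:10993465-11303681, plus strand), an exchange factor that activates the GTPase RAC1, had 8 quiescent-specific sites of 12 and no activated-specific site. Its called sites numbered 10 and 15 in quiescence and 5 and 2 in activation. The strongest, chr1:10899209-10899735, lay 94.0 kb upstream of the nearest TSS with fold enrichments of 6.57 and 7.11. *Irs2*, an adaptor of the insulin and IGF1 receptors, had 10 quiescent-specific and 3 activated-specific sites, with 31 and 26 called sites against 20 and 18. The quiescent-specific sites of *Irs2* ranged from 37.2 to 287 kb from its TSS, and none lay in its own introns. *Nrg1*, which encodes ligands of ERBB receptors, had 8 quiescent-specific sites, all intronic, and 18 and 23 called sites against 17 and 12.

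*Rbfox1* and *Celf2* encode RNA-binding proteins that regulate splicing. *Rbfox1* had 10 quiescent-specific and 5 activated-specific sites, with 28 and 25 called sites in quiescence and 22 and 19 in activation. Its site at chr16:6986024-6986504, in an intron, was among the strongest of all quiescent-specific sites named, at 12.1 and 9.94. *Celf2* had 8 and 3 sites, with 22 and 26 called sites against 20 and 15. *Cdk5rap2*, a centrosome protein, had 8 quiescent-specific sites and no activated-specific site as deposited, and 7 and 1 at equal length. Its libraries gave 20 and 15 called sites in quiescence and 10 and 10 in activation, and an intergenic site at chr4:69823307-69823776, 431 kb from the TSS, reached 11.5 and 11.7. *Btbd3*, which helps to orient dendrites, had 7 and 1 sites, and its libraries overlapped (17 and 23 against 18 and 12). *Aqp4*, the water channel of astrocytes and one of the loci the study chose, had 6 of 10 sites quiescent-specific and none activated-specific, with 10 and 10 called sites against 5 and 2. Of the other loci chosen by the study, *Olig2* had 0 quiescent-specific and 1 activated-specific of 6 sites, and *Fgf1* had 3 and 2 of 14.

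The 15 quiescent genes together held 133 quiescent-specific and 26 activated-specific sites. Of the 133, 93 were intronic, 32 intergenic and 8 exonic, and 3 lay within 1 kb of a TSS. Their median distance to the nearest TSS was 111 kb. In 13 of the 15 genes both quiescent libraries had more called sites than either activated library, and 12 did so at equal length, where *Tenm4*, *Rbfox1* (21 and 18 against 17 and 19) and *Nrg1* (15 and 16 against 15 and 12) no longer did and *Opcml* and *Btbd3* did. The background was 14.9% and 12.8% of genes. Because these genes were picked for their quiescent-specific sites, a high share follows from the choice.

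The territories of the 15 genes on the activated side ran from 295 to 1936 kb, with a median of 710 kb. Regulators of transcription among them, which ranked behind *Frmd4a*, *Sorl1* and *Ntm*, are given first. *Sox11* (ENSMUSG00000063632.6, chr12:27334264-27342574, minus strand), a SOX factor of immature neurons and progenitors, had 6 activated-specific sites and 1 quiescent-specific site among 12. Its called sites numbered 7 and 7 in quiescence and 15 and 10 in activation. The 6 sites were intergenic or in other transcripts, between 14.6 and 599 kb from its TSS, and the strongest, chr12:27575569-27575983, had fold enrichments of 9.35 and 8.46. *Creb5*, a basic leucine zipper factor that binds cAMP response elements, had 6 activated-specific sites, all intronic, with 5 and 7 called sites against 13 and 10. Its strongest site, chr6:53455426-53455831, reached 11.8 and 6.42. *Zfp608*, a zinc finger protein, had 7 activated-specific and 4 quiescent-specific sites (23 and 27 called against 37 and 31). *Gse1*, a component of histone deacetylase complexes, had 8 and 1 (26 and 25 against 32 and 37). The states did not overlap at these 4 genes. *Camta1*, a calmodulin-binding transcription activator, had 6 and 5, and there the quiescent libraries had 26 and 26 called sites and the activated ones 22 and 25. *Auts2*, which acts with Polycomb proteins in neurons, had 8 and 5, and its libraries overlapped (22 and 29 against 33 and 27).

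*Plk2* (ENSMUSG00000021701.8, chr13:110395046-110400844, plus strand) is a polo-like kinase induced by growth factors. Of its 9 sites, 6 were activated-specific and none quiescent-specific, and 3 and 4 sites were called in quiescence against 12 and 8 in activation. All 6 lay downstream of this short gene in intergenic sequence, from 97.8 to 353 kb from the TSS. At the strongest, chr13:110534307-110534811, fold enrichment was 9.28 and 6.42. *Sorl1*, a sorting receptor of endosomes that handles the amyloid precursor protein, likewise had its 7 activated-specific sites past the end of the gene, 205 to 459 kb from the TSS, 4 of them in introns of other transcripts. Its called sites were 10 and 9 in quiescence and 16 and 13 in activation. *Mdfic*, an inhibitor of MyoD family factors, had 5 activated-specific sites and no quiescent-specific one, with 2 and 7 called sites against 11 and 9. Its site at chr6:16212967-16213469 had fold enrichments of 14.5 and 9.09, the first of which was the highest in activated replicate 1 among the sites of the 15 genes.

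Genes of the cytoskeleton and the cell surface made up the rest. *Frmd4a* (ENSMUSG00000026657.16, chr2:4017717-4614043, plus strand), a FERM-domain scaffold of epithelial polarity, ranked first with 8 activated-specific sites, all in its introns, and 3 quiescent-specific sites. Its called sites were 20 and 19 in quiescence and 27 and 25 in activation. *Ntm*, an adhesion molecule of the same GPI-anchored family as *Opcml*, had 7 and 2 sites, with 17 and 15 called sites against 28 and 18. *Tns3*, a tensin at focal adhesions, had 7 and 4, with 33 and 27 against 34 and 24. *Tnc*, the matrix glycoprotein tenascin C, had 6 and 4, with 19 and 17 against 17 and 19. *Sulf2*, which removes sulphate from heparan sulphate at the cell surface, had 6 and 5, with 13 and 14 against 12 and 13. At *Tns3*, *Tnc* and *Sulf2* the number of called sites as deposited did not separate the states, although each gene exchanged some sites for others.

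As deposited, the 15 activated genes held 100 activated-specific and 46 quiescent-specific sites, a more mixed picture than on the quiescent side. Genes without a site of the other state numbered 2 here and 3 on the quiescent side as deposited. At equal length they numbered 3 here and 2 on the quiescent side, so that this order was not kept. Of the 100 sites, 61 were intronic, 32 intergenic and 7 exonic, 3 lay within 1 kb of a TSS, and the median distance was 112 kb. Both activated libraries had more called sites than either quiescent library in 9 of the 15 genes as deposited and 11 at equal length, where *Auts2* and *Tnc* (16 and 16 called sites against 17 and 19) were added, beside a background of 7.0% and 9.97% of genes. The same choice of genes stands behind this count.

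Some genes exchanged sites along their length. *Nav2* (ENSMUSG00000052512.17, chr7:48908716-49610090, plus strand), a neuron navigator protein that guides neurite growth, had 8 quiescent-specific and 7 activated-specific sites among 46, more of the less frequent state than at any other gene as deposited. Called sites at *Nav2* numbered 41 and 43 in quiescence and 41 and 33 in activation. The 7 activated-specific sites lay 51.6 to 237 kb from the 5′ end of the longest gene model, and the 8 quiescent-specific sites all lay beyond them, at 328 to 621 kb. At *Creb5* the order was the same, with activated-specific sites at 84.9 to 296 kb and its 2 quiescent-specific sites at 338 and 410 kb. In *Tenm4* both kinds were interspersed, from 1080 kb upstream to 594 kb downstream for quiescent-specific and from 901 kb upstream to 662 kb downstream for activated-specific sites. *Rapgef5*, an exchange factor for RAP GTPases, had 8 quiescent-specific and 5 activated-specific sites of 40 with called sites that touched as deposited (36 and 40 against 36 and 29). These arrangements were seen in the figure of positions and were not tested.

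**Figure D3:**
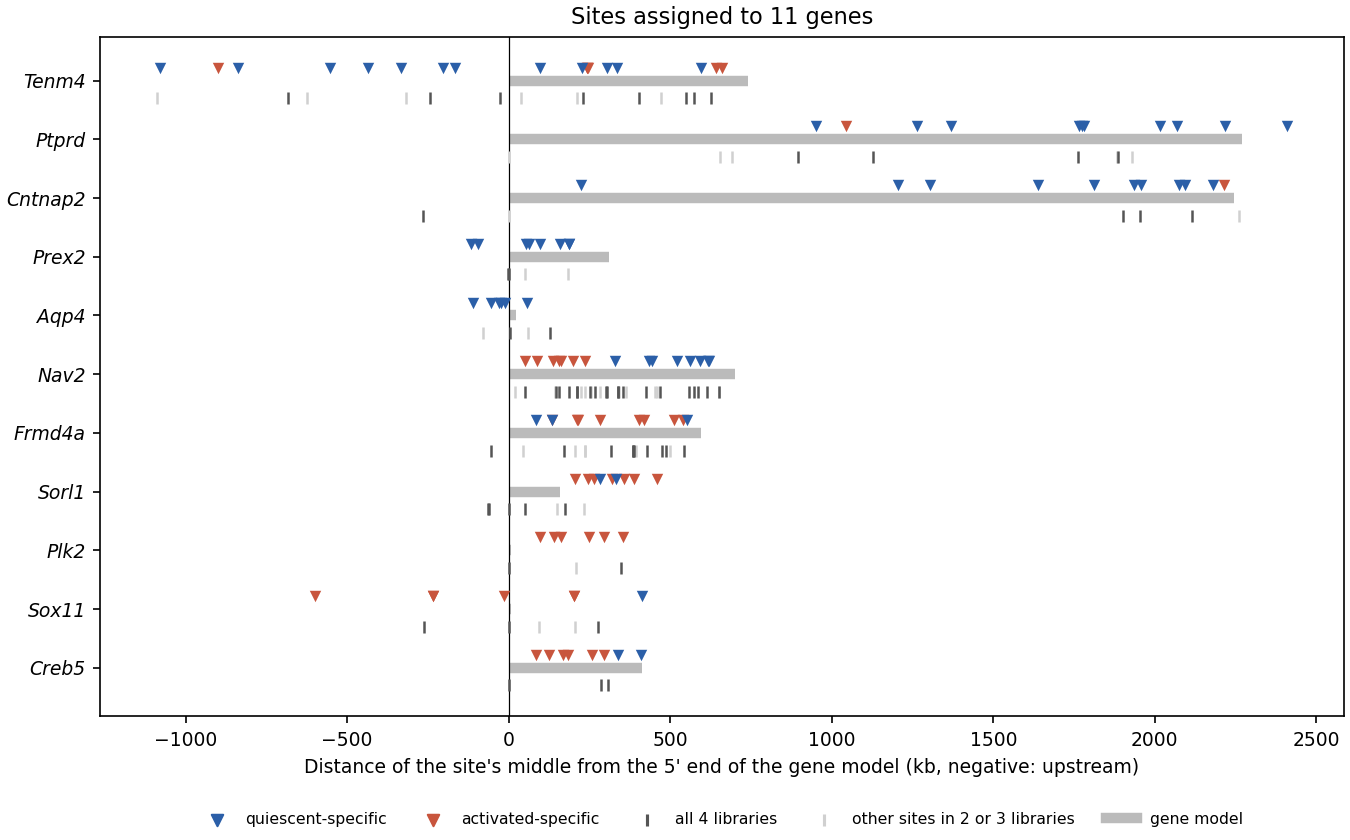
Position of quiescent-specific, activated-specific and all-library sites of 11 genes, in kb from the 5′ end of the gene model, with the gene body drawn as a bar. At *Nav2* the 7 activated-specific sites precede the 8 quiescent-specific sites, and at *Plk2* and *Sorl1* the activated-specific sites lie beyond the start of the gene by up to 353 and 459 kb.

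Some genes had specific sites of one state only, beside few or many shared ones. Among sites with a peak in at least 2 libraries, every site was quiescent-specific at 10 genes with at least 3 sites, and every site was activated-specific at 2. These included *Apob*, the apolipoprotein of low-density lipoprotein, with 4 of 4 sites quiescent-specific and 6 and 6 called sites in quiescence against 1 and 0 in activation. *Fezf2*, a transcription factor of forebrain progenitors and corticospinal neurons, had 4 of 4 sites activated-specific, with 0 and 1 called sites in quiescence against 4 and 4 in activation. *Mkln1* had 9 quiescent-specific sites of 13 and no activated-specific site (15 and 13 called sites against 5 and 3). *Sept9*, a cytoskeletal septin, had 6 activated-specific sites of 17 and no quiescent-specific site (8 and 11 against 18 and 21). *Apob*, *Fezf2*, *Mkln1* and *Sept9* were named after their values were seen.

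Specific sites were rare at promoters. Within 1 kb of a TSS lay 321 quiescent-specific sites (4.78%) and 465 activated-specific sites (10.1%), against 47.3% of sites with a peak in all 4 libraries. The median distance to the TSS was 37.4 kb for quiescent-specific and 30.5 kb for activated-specific sites and 2.13 kb for sites of all 4 libraries. Over 100 kb from any TSS lay 26.4%, 23.1% and 11.1% of these classes. Introns held 3483 quiescent-specific sites (51.9%) and 2100 activated-specific sites (45.7%), and exons 723 (10.8%) and 769 (16.7%). Distances were longer where sites gathered, at a median of 73.6 kb against 26.1 kb elsewhere for quiescent-specific sites and of 54.0 kb against 25.2 kb for activated-specific sites.

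**Figure D4:**
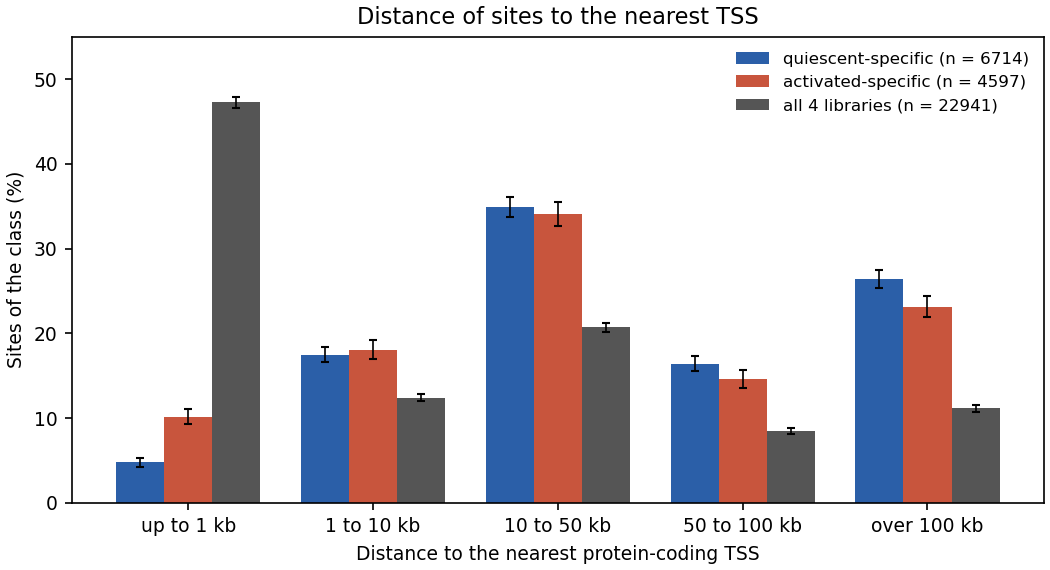
Distance from the middle of a site to the nearest protein-coding TSS, by class of site. Of sites with a peak in all 4 libraries, 47.3% are within 1 kb, while 4.78% of quiescent-specific and 10.1% of activated-specific sites are.

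The strongest specific promoter sites were named for 5 genes per state. *Sdcbp*, which encodes the adaptor syntenin of exosome formation, had the first quiescent-specific one, at chr4:6375930-6376345, with fold enrichments of 11.04 and 8.48. *Muc15*, a membrane mucin, had a pair of quiescent-specific promoter sites, and the stronger, chr2:110721468-110722098, reached 7.45 and 6.92. *Synpo2*, an actin-binding protein, followed with 6.81 and 5.87 at chr3:123236036-123236469. The remaining quiescent genes were *Olfr770*, an olfactory receptor gene (5.92 and 6.95), and *Gm813* (7.18 and 5.27). These sites within 1 kb of a TSS had a peak of at least 5.27-fold in both quiescent libraries, with none called there in activation. H3K4me3, a histone mark of active promoters, was not called in both states at those of *Sdcbp*, *Muc15*, *Olfr770* and *Gm813*. The *Sdcbp* site lay in an intron of the gene, and 1 of the 3 sites of *Sdcbp* had a peak in all 4 libraries.

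In activation, *Dock10*, an exchange factor for CDC42 and RAC, had a promoter site at chr1:80709282-80709691 with 12.8 and 7.99. The same gene had an intergenic quiescent-specific site at chr1:80900707-80901272, with 12.2 and 7.55. *Klf13*, a Krüppel-like repressor, had one at chr7:63925019-63925251 with 8.61 and 7.89. *Ccdc57* (7.34 and 7.27), *Lpo*, lactoperoxidase (6.499 and 6.90), and *Rab17*, a GTPase of polarised trafficking (6.30 and 7.02), completed the 5. H3K4me3 was called in both states at the promoter sites of *Dock10*, *Klf13* and *Ccdc57*, and not at those of *Lpo* and *Rab17*. At *Klf13* the called sites were 7 and 10 in quiescence and 10 and 12 in activation, and the promoter site was its single specific site of 10 as deposited. At equal length *Klf13* had 3 activated-specific sites of 9, and its libraries separated (5 and 7 against 9 and 12).

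The order of specific sites along the chromosomes was counted as well. The next site along the chromosome, among sites in at least 2 libraries, was of the same state after 1398 quiescent-specific sites (20.8%) and of the other state after 583 (8.68%). After activated-specific sites these numbers were 676 (14.7%) and 650 (14.1%). As 14.8% of all these sites were quiescent-specific and 10.1% activated-specific, both classes had same-state neighbours more often than those shares, and activated-specific sites were followed by quiescent-specific ones at about the general share. Those shares include promoters, where specific sites were rare. Over 1 kb from a TSS the shares were higher, with 6393 quiescent-specific and 4132 activated-specific of 32164 sites. Neighbours were not counted for those sites alone, so that whether same-state neighbours exceed the shares away from promoters was not tested. The longest run of such sites without another between them was 7 quiescent-specific sites nearest *Nbas*, a protein of Golgi-to-ER transport, over chr12:13307942-13677546. *Nbas* had 8 and 9 called sites in quiescence against 3 and 1 in activation. Runs of 6 were found at *Mrpl19* and *Eva1a* (85.9 kb), at *Agap1* (174 kb) and at *Myom2* and *Csmd1* (296 kb). The longest activated runs were of 5 sites, at *Msi2* (63.0 kb), which encodes an RNA-binding protein of neural progenitors, at *Ets2* (83.1 kb), an ETS factor downstream of RAS and MAP kinases, and at *Creb5* (174 kb). All 5 activated-specific sites of *Ets2* fell in its run, out of 6 sites in at least 2 libraries, and 2 and 2 of its sites were called in quiescence against 7 and 7 in activation.

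The 10 lists of genes of these pathways and lineages were counted against the shares over all sites, 14.8% quiescent-specific and 10.1% activated-specific. Promoters are included in these, and over 1 kb from a TSS the shares were higher (6393 and 4132 of 32164 sites). The lists were not counted for those sites alone. Over all genes the median was 0 sites of either kind, with means of 0.46 and 0.32. Called sites of the genes named are as deposited, and at equal length separation of the states was gained or lost at several of them (*Bmper*, *Slc1a3*, *Nfia*, *Lhfpl3*, *Mbp*, *Meis2*, *Dusp6*, *Spry2*, *Ccnd1*, *E2f2*, *Tnc*, *Robo1* and *Sema6a*). The specific sites of the genes named are likewise as deposited. At equal length the lead of one state ended at *Dlx2*, *Etv1*, *Spred2* and *Ccnd1* (1 of each state), at *Myc* (4 of each) and at *Acaca* (0 of each), it turned at *Bmper* and *Id2*, and *Mbp* came to have 3 quiescent-specific sites and 1 activated-specific site. Among genes of the BMP pathway, the 150 sites included 29 quiescent-specific (19.3%) and 22 activated-specific (14.7%), both above the shares over all sites, promoters included. The median gene had 1 of each. The type I receptors differed, as *Bmpr1a* had 3 and 1 (5 and 6 called sites against 3 and 3) and *Bmpr1b* had 2 and 4 (11 and 12 against 14 and 13). *Id2*, a target of SMAD signalling, had 2 and 3, with 9 and 9 called sites against 11 and 8. *Bmper*, which binds BMPs outside the cell, had 3 and 2, with 14 and 14 against 17 and 13. As deposited, the receptors alone kept the states apart among these 4 genes, and at equal length *Bmper* did too (12 and 11 against 15 and 13). *Bmper* and *Id2* changed the state with more specific sites at equal length, to 2 and 3 and to 2 and 1.

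Genes of astrocytes and radial glia had 26 quiescent-specific (20.5%) and 14 activated-specific (11.02%) of 127 sites, with medians of 0. *Gja1*, the gap junction protein connexin 43, had 4 and 0 (13 and 15 called sites against 9 and 4), whereas *Sox9*, a factor that specifies glia, had 2 and 6 (13 and 11 against 15 and 16). *Slc1a3*, a glutamate transporter, had 3 and 2, with 12 and 13 against 12 and 10. The list thus held genes of both directions. Genes that regulate quiescence had 21 (13.6%) and 19 (12.3%) of 154 sites, with medians of 0.5 and 1. *Nfib* had 5 and 4 of 33 sites and *Nfia* 3 and 1 of 18, both NFI factors, and *Foxo3*, a forkhead factor needed to keep neural stem cells, had 3 and 1 of 8 (9 and 9 called sites against 5 and 5). *Hes1*, a Notch target, had 2 of each.

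Genes of the proneural and interneuron programme had 9 quiescent-specific (8.91%) and 21 activated-specific (20.8%) of 101 sites, with medians of 0 and 1. These lay below and above the shares over all sites. Genes that regulate quiescence stood on the same sides of those shares, and no difference between lists was tested. Gathering was seen at 0 of the 18 proneural and interneuron genes for quiescence and 3 for activation, where 4.19% and 1.95% of all genes did so. The 0 is near that share for a list of 18 genes. Other lists also held gathering genes, with 10 and 4 of 25 guidance genes, 6 and 2 of 23 matrix genes and 5 and 2 of 22 BMP genes. Lipid metabolism had 0 for both states. *Sox11* led the proneural and interneuron list with 1 and 6, followed by *Meis2*, a homeobox cofactor, with 2 and 3 (8 and 10 called sites against 12 and 10). *Dlx2*, a homeobox factor of interneurons, had 1 and 2 (5 and 7 against 10 and 8), and *Etv1*, an ETS factor, had 2 and 1 (11 and 10 against 13 and 8). In the oligodendrocyte lineage the shares were 9.64% (8) and 12.0% (10) of 83 sites, with medians of 0 and 1. *Bcas1*, of newly myelinating cells, had 0 and 2, with 7 and 7 called sites against 10 and 10, and *Cnp*, a myelin enzyme, had 1 and 2. *Lhfpl3*, expressed in precursors, had 3 and 0, and *Mbp*, myelin basic protein, had 1 of each.

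In the list of ERK feedback and AP-1 genes, 23 sites (14.02%) were quiescent-specific and 16 (9.76%) activated-specific of 164, near the shares over all sites. *Myc* had 5 and 2, with 17 and 22 called sites against 22 and 15. *Dusp6*, a phosphatase of ERK, had 3 and 2, and the inhibitors *Spred2* and *Spry2* had 3 and 1 each. Cell cycle genes had 11 (13.3%) and 6 (7.23%) of 83 sites. Of these, 5 of the quiescent-specific sites were nearest to *Mki67*, which encodes the proliferation antigen Ki-67, with 21 and 23 called sites in quiescence and 14 and 12 in activation. All 5 were intergenic and lay far upstream of its TSS, from 161.2 to 522.5 kb. The cyclin gene *Ccnd1* had 1 and 2, *Cdk6* had 2 and 0, and *E2f2* had 1 of each. A single gene thus held 5 of the 11 quiescent-specific sites.

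Matrix and adhesion genes had 35 quiescent-specific (20.7%) and 17 activated-specific (10.1%) of 169 sites, with medians of 1 and 0. *Col4a1*, a collagen of basement membranes, had 5 of 9 sites quiescent-specific and none activated-specific, with 10 and 12 called sites against 5 and 5. The cadherin genes differed, *Cdh4* with 5 and 2 (30 and 31 called sites against 26 and 20) and *Cdh2*, N-cadherin, with 1 and 4 (11 and 11 against 16 and 14). Guidance genes had 50 (20.2%) and 36 (14.5%) of 248 sites with medians of 2 and 1, the first of which was the highest among the lists. The ephrins *Efnb2*, with 6 and 2 (16 and 22 against 13 and 9), and *Efna5*, with 5 and 0 (13 and 14 against 11 and 9), were higher in quiescence. *Robo1*, a Slit receptor, had 4 and 3, and *Sema6a*, a semaphorin, had 3 and 4. Genes of lipid metabolism had 7 (11.3%) and 3 (4.84%) of 62 sites, the fewest specific sites of the 10 lists. *Ppargc1a*, a coactivator of oxidative metabolism, had 2 and 1, *Acsl3* and *Ppara* had 2 and 0, and *Acaca* had 0 and 1.

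The sequence at the sites differed by state, which the rule did not use. Exact matches on both strands were counted in the 200 bp around each summit. CAGATG, the E-box of OLIG factors among others, was present in 1338 of 4597 activated-specific windows (29.1%, 27.8 to 30.4%) and in 1005 of 6714 quiescent-specific windows (14.97%, 14.1 to 15.8%). All sites in at least 2 libraries had it at 15.7%. The short NFI motif TTGGCA was more frequent in quiescence, at 27.6% (26.5 to 28.6%) against 20.9% (19.7 to 22.1%), with 19.1% over all. Each of these motifs was thus more frequent in one class than in the other and than over all sites, the E-box in activation and the short NFI motif in quiescence. The full NFI site, in which the letters TTGGC and GCCAA face each other across 5 bases, was rare and stood the other way, in 9 activated-specific windows (0.196%, 0.0896 to 0.371%) and 3 quiescent-specific windows (0.0447%, 0.00922 to 0.131%), beside 0.0946% of all.

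Another E-box, CATATG, was in 3.20% of activated-specific (2.71 to 3.75%) and 2.49% of quiescent-specific windows (2.13 to 2.89%), beside 2.14% of all, with intervals that overlapped between the states.

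Other motifs differed as well. ACAATG, bound by SOX factors, was in 16.9% of activated-specific and 10.3% of quiescent-specific windows, beside 10.04% of all, and the AP-1 motif (TGACTCA or TGAGTCA) was in 9.88% and 4.74%, beside 5.12%. The RFX motif GTTGCCATG was in 2.57% and 0.55%, beside 1.46%. GGAATG of TEAD factors was near equal, at 13.8% and 13.9%, beside 11.3%. CCAAT of NF-Y was in 20.7% and 24.7%, beside 25.4%. Of the SMAD motifs, the palindrome GTCTAGAC was in 6 activated-specific (0.13%) and 33 quiescent-specific windows (0.49%), beside 0.23% of all, and the GC box GGCGCC in 3.26% and 3.43%, beside 9.19%. CTCF motifs were in 1.96% and 2.37%, beside 4.02%.

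Promoters are richer in G and C, so the shares were also taken over 1 kb from any TSS. CAGATG was then in 30.7% of activated-specific, 15.4% of quiescent-specific and 19.4% of all windows there, and the short NFI motif in 21.7%, 28.3% and 24.0%. The order of the states was kept for both. NF-Y matches over 1 kb from a TSS were in 20.96% of activated-specific and 24.86% of quiescent-specific windows, beside 23.02%. Quiescence thus stood above the share of all windows there and not below it. TEAD matches were in 14.25% and 14.17%, beside 13.22%, SOX matches in 17.81% and 10.48%, beside 12.49%, and AP-1 matches in 10.48% and 4.82%, beside 6.43%. GC content of these windows was 52.2% and 49.2%. In genes with 3 or more specific sites, CAGATG was in 31.3% of activated-specific and 14.4% of quiescent-specific windows, and the short NFI motif in 20.1% and 28.4%. Over all specific sites, those of gathering genes included, the same shares were 29.1% and 14.97%, and 20.9% and 27.6%. In the 15 named genes per state, 30 of 100 activated-specific and 25 of 133 quiescent-specific windows held CAGATG. Activated genes ranged from *Tnc*, with it in 4 of 6 activated-specific sites, and *Zfp608*, in 4 of 7, to *Plk2*, *Sox11* and *Camta1*, each in 0 of 6. The short NFI motif was in 24 of the 100 and 34 of the 133, from 6 of 12 quiescent-specific sites at *Tenm4* to 0 of 8 at *Nrg1*.

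**Figure D5:**
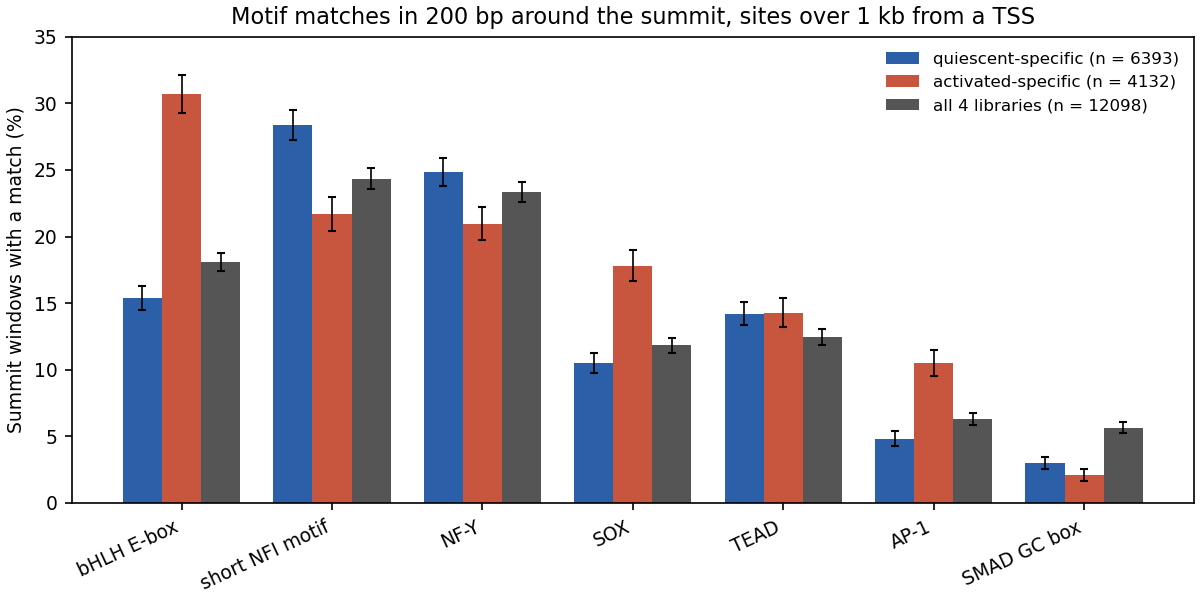
Share of 200 bp summit windows over 1 kb from a TSS that hold each of 7 motifs, by class of site, with exact 95% intervals. The bHLH E-box, CAGATG, is at 30.7% in activated-specific and 15.4% in quiescent-specific windows, and the short NFI motif at 21.7% and 28.3%.

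Libraries that the rule did not use were then read at the same sites. Reactivated NSPCs, which had returned from BMP4 to FGF2 and EGF, had a peak in both libraries at 4227 activated-specific sites (92.0%, 91.1 to 92.7%) and 3691 quiescent-specific sites (54.97%, 53.8 to 56.2%), against 98.9% of sites with a peak in all 4 libraries. The reactivated lists were longer, at 103186 and 103783 peaks, and the part of their length in these shares was not tested. At equal length of the 4 lists the shares were 94.6% and 63.6%. In gathering genes the quiescent-specific share was 51.5%, against 56.9% elsewhere, and the activated-specific share was 93.0%, against 91.6%. Of the 133 sites of the 15 quiescent genes, 62 (46.6%) had a peak in both reactivated libraries, and of the 100 sites of the 15 activated genes, 96 did. At *Prex2*, 1 of 8 sites had both and 3 had neither, whereas at *Plk2* 6 of 6 sites had both.

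H3K4me3, a histone mark of active promoters, was called in both states at 13.2% of the activated-specific sites and 4.13% of those specific to quiescence, against 54.96% of sites of all 4 libraries. There was 1 H3K4me3 library per state, without a replicate. In gathering genes the shares were 10.8% and 2.43%, against 13.9% and 5.06% in other genes. Among the named genes, 12 of the 100 activated-specific and 3 of the 133 quiescent-specific sites carried the mark. The order of these shares was that of the promoter shares, 10.1% and 4.78%.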

How the data were processed

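ATAC-seq lists came from quiescent, activated and reactivated NSPCs, and H3K4me3 lists from the quiescent and activated states. Per the submitters' notes and methods, the authors trimmed reads with Trim Galore 0.4.0, aligned them to mm10 with Bowtie2 2.2.5, removed duplicates with Picard 1.88 and SAMtools 1.3.1, and called peaks in each library with MACS at an FDR of 0.05. For the reactivated state, the authors lowered the number of reads before calling peaks. Each deposited list gives a fold enrichment, which is the authors' ratio of pileup to background within a library, and −log10 p and −log10 q values, which the authors computed within each library and which grow with depth. The deposited score, 10 times the −log10 q, was not used. Depth was read from the background, which the MACS formulas give from the deposited fold enrichment and p. Among peaks whose −log10 p was at most 40, at least 99.98% had a pileup that was whole, as judged by −log10 p matching within 0.02%.

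Peaks on chromosomes 1 to 19 were merged where they overlapped or abutted, and a library had a site where 1 bp of a peak overlapped it. Sites were assigned by their middle to the nearest TSS of the protein-coding genes in GENCODE M21 (GRCm38). Exons and introns were those of the same annotation. One motif of the planned set is not reported here. No test was run, since the lists hold no read counts. Shares have exact (Clopper-Pearson) 95% intervals. The named genes were the 15 per state with the most sites under both kinds of list, the 5 per state with the strongest promoter site, the 5 with the most sites of the less frequent state, the 4 of each list with the most specific sites, and the loci the study chose. Members and gene lists were chosen with earlier results of these data known. The alternatives were lists of equal length, joined peaks, stricter peaks, other assignments and libraries left out. Classes, assignment and counts per gene were tested on simulated data. Python 3.11.15 with numpy 2.4.6, pandas 2.3.3, scipy 1.17.1 and matplotlib 3.10.9 was used.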

Additional observations from a re-analysis of the deposited data

How the results depend on the processing

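Counts of specific sites, of genes with one and of gathering genes fell when peaks had to be stronger. The lead of quiescent-specific over activated-specific sites was kept under every setting given in this paragraph except where named. With peaks of −log10 q of at least 10, there were 3179 quiescent-specific and 3052 activated-specific sites, 2406 genes with a quiescent-specific site, and 159 and 145 gathering genes, with 1271 genes whose quiescent libraries both had more called sites. Genes whose activated libraries both had more called sites rose instead, to 1174 from 1115 as deposited. With fold enrichment at or above the list's median in both libraries, there were 1851 and 1031 sites, 1494 and 888 genes with one, and 53 and 25 gathering genes. Within 25 kb upstream to 10 kb downstream of a TSS, 1741 and 1432 genes had a specific site, 1325 had more called sites in both quiescent libraries, and 25 and 32 gathered 3, where the activated state led. At least 5 sites were present at 135 and 50 genes. With subpeaks joined and then lists of equal length, 385 genes gathered quiescent-specific sites, and 1691 had more called sites in both activated libraries. Activated-specific sites (5019, against 4597 as deposited) and activated gathering genes (352 against 284) also rose there. The cause of these changes was not tested.

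Leaving out 1 library lets a single library make the call, and so gives more sites: 7610 to 15088 quiescent-specific and 5878 to 11095 activated-specific sites, 4586 to 7191 and 3860 to 5912 genes with one, 702 to 1728 and 450 to 1218 gathering genes, and 2774 to 4504 and 1682 to 2924 genes with more called sites in one state. The highest quiescent values were without quiescent replicate 1 and the highest activated values without activated replicate 2, where the activated state led in sites (11095 against 7610), in genes with one (5912 against 4586), in gathering genes (1218 against 702) and in genes with more called sites (2924 against 2774). Over the 4 libraries left out in turn, the shares ran from 25.1 to 27.5% (CAGATG, activated), 22.1 to 27.1% (short NFI motif, quiescent), 19.1 to 20.7% (short NFI motif, activated), 4.96 to 7.93% and 13.1 to 17.3% (H3K4me3, quiescent and activated), and 40.2 to 67.0% and 75.9 to 93.1% (reactivated, quiescent and activated). Over whole sites, CAGATG was in 40.3% of activated-specific sites, and the short NFI motif in 29.5% and 36.1%. At equal length, H3K4me3 was at 14.8% and 5.01%, and reactivated calls at 94.6% and 63.6%. Gathering genes without the other state ranged over all settings from 18.2 to 67.9% (quiescent) and 16.4 to 75% (activated).

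The counts at the 15 named genes per state were less stable than their direction. Within 25 kb upstream to 10 kb downstream of a TSS, none of them stayed within 1.5 times its count. At −log10 q of at least 10, *Rbfox1* and 12 other quiescent genes and 8 activated genes moved by more than that. With 1 library left out, *Ptprd* had up to 20 sites, *Nrxn3* up to 17 and *Ntm* up to 16. The state with more specific sites changed under some setting at 8 of the 30 genes. *Celf2*, *Auts2* and *Tnc* had 0 sites of their state within 25 kb upstream to 10 kb downstream, and *Rbfox1* had 2 at −log10 q of at least 10. *Nav2* had 9 activated-specific sites at equal length (by −log10 p, by fold enrichment and with joined subpeaks), 8 with 1 TSS per gene and 10 without activated replicate 2, each time more than its quiescent-specific sites. *Camta1* had 0 at the median fold enrichment, 1 with 1 TSS per gene, and 8 without either quiescent replicate. *Tnc* had 7 without quiescent replicate 2, *Tns3* had 8 without quiescent replicate 2 or activated replicate 1 (up to 12 over the libraries left out), and *Sulf2* had 6 without quiescent replicate 1. Replicate numbers are shared between the states, and the methods use the number as a block for library preparation in another comparison of the study, but neither labels nor methods tie it to a culture or batch shared by these 2 states. Across 15921 genes the difference between replicates 1 and 2 in called sites had a Pearson r of −0.138 between the states. With the replicate number as a block, an alternative added after seeing the data, 2724 genes had more called sites in quiescence within both numbers and 1348 had more in activation, where 2370 and 1115 did without it. The lists hold called peaks only, so that depth limits what is absent from them.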
